A study of Mus musculus with 24 samples.

Results

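The regions examined here are the places where MLL1 was called by chromatin immunoprecipitation and sequencing (ChIP-seq) in 3 mouse leukaemia lines cultured with VTP50469 at 2 uM. They were taken from the 3 deposited lists of narrow peaks that the labels assign to the MLL1 antibody and to this dose, and no measured value was used to choose them. Together the lists hold 61433 regions, of 192030 in the 14 lists of the series. The list of NUP98-HOXA9 cells has 21739 regions, that of NUP98-HOXD13 cells 14744 and that of NUP98-JARID1A cells 24950.

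The series, with 24 samples, is a study of the MLL-menin interaction in acute myeloid leukaemia with NUP98 rearrangements. The sample titles call the lines mm202C-H9C (NUP98-HOXA9), mmNHD13 (NUP98-HOXD13) and mm202A-J1AC (NUP98-JARID1A), and the labels used here give no strain, age, number of clones or way in which the cells were made. All 3 cultures were kept in IMDM with serum, IL-3, IL-6 and SCF, and all 3 received VTP50469 at 2 uM. For MLL1, NUP98-HOXA9 cells were collected at 72 hours and the other lines at 96 hours. The H3K4me3 and menin lists of treated cells set beside them below are all from 96 hours, so for NUP98-HOXA9 they come from another time than the MLL1 list. Each line is 1 library, so fusion gene, treatment time and library cannot be told apart, and no difference between lines has a replicate check or a test. Lists from vehicle-treated cells were not compared.

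MLL1 (the product of Kmt2a) is a histone methyltransferase that places methyl groups on lysine 4 of histone H3. It reaches many of its sites together with menin, and its CXXC domain binds unmethylated CpG pairs such as those of CpG islands. VTP50469 occupies the pocket of menin into which MLL1 fits. In NUP98 fusions the front part of a nucleoporin is joined to a chromatin or DNA-binding partner: the homeodomain of HOXA9 or HOXD13, or the part of JARID1A (KDM5A) that holds a PHD finger for methylated lysine 4. Genes of the HOXA cluster and their cofactor gene Meis1 are the best known targets of MLL1 in myeloid leukaemia.

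The promoters that carry the main patterns are printed first, from the RefSeq promoter table (build GRCm38.p6, the assembly behind mm10). Each runs 5′ to 3′ from 250 bases before to 50 bases after a transcript start. Capitals mark CGCG, a palindrome that reads the same on both strands and holds a pair of CpG sites. CGCG was found in 49.7% of all 21045 promoters of protein-coding genes. Foxo3 and Sp3, which encode a forkhead and a zinc finger transcription factor, stand for the wide domains present in all 3 treated lines. All 300 bases of each promoter lay in a region of every list. The Foxo3 promoter is at chr10:42276646-42276945 on the minus strand and has 8 matches, counting overlapping ones. The Sp3 promoter is at chr2:72979232-72979531, also on the minus strand, and has 10.
Foxo3: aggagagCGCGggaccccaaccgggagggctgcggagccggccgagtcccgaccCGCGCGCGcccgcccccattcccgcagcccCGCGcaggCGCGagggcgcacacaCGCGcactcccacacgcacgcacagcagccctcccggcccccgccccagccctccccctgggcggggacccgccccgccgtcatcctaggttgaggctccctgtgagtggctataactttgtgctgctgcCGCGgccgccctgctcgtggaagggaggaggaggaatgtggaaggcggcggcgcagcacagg
Sp3: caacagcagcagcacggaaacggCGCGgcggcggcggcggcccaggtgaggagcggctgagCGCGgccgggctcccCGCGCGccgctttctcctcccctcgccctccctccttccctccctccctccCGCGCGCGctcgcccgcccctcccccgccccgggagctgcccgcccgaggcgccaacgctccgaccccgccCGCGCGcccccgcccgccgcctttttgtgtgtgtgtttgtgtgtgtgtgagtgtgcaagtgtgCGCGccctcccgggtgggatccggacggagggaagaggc

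The next promoters lay wholly in a region of the NUP98-JARID1A list and in no region of the other lists. Hoxa9, the homeobox gene at the centre of MLL1 biology, has a promoter entry at chr6:52227321-52227620 (minus strand) with 0 matches. Both other lists had regions within 1 kb of an annotated Hoxa9 end, but outside this window. Nkx2-3, a homeobox gene, has its entry at chr19:43612075-43612374 (plus strand) with 1 match. That of Six4, which encodes a homeodomain protein of the sine oculis family, is at chr12:73113196-73113495 (minus strand) and has 0. Gata2, a regulator of blood stem and progenitor cells, has an entry at chr6:88193641-88193940 (plus strand) with 6.
Hoxa9: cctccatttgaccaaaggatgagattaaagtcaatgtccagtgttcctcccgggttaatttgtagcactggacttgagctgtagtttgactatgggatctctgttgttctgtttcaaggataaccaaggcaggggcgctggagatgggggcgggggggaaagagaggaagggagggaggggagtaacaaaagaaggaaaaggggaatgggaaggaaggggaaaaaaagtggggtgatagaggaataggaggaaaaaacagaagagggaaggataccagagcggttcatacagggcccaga
Nkx2-3: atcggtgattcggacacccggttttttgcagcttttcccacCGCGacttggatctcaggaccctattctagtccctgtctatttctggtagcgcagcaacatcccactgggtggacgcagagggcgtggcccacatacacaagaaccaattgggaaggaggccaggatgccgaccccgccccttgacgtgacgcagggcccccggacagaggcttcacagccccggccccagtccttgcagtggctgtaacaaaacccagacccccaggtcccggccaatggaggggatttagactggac
Six4: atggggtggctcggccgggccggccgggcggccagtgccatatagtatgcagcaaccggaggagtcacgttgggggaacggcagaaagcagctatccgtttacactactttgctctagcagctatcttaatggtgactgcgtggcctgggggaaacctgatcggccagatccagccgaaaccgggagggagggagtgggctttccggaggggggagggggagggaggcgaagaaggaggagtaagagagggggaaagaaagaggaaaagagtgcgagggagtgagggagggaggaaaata
Gata2: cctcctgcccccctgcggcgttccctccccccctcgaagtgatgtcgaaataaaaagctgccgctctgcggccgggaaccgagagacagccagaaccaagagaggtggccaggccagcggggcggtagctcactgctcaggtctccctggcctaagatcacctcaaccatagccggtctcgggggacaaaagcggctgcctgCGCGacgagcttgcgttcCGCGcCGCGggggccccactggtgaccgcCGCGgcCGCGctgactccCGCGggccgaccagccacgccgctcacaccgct

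The last promoters stand for the other lines. That of Spryd4, at chr10:128211745-128212044 (minus strand), has 2 matches and lay wholly in a region of the NUP98-HOXA9 list only. Ctla2a encodes an inhibitor of cysteine proteases. Of its promoter at chr13:60936576-60936875 (minus strand, 0 matches), 297 bases lay in a NUP98-HOXD13 region and none in the others. Lpar1, a receptor for lysophosphatidic acid, has a promoter at chr4:58553244-58553543 (minus strand, 9 matches). Of its bases, 263 lay in a NUP98-HOXA9 region, 262 in a NUP98-HOXD13 region and 0 in a NUP98-JARID1A region.
Spryd4: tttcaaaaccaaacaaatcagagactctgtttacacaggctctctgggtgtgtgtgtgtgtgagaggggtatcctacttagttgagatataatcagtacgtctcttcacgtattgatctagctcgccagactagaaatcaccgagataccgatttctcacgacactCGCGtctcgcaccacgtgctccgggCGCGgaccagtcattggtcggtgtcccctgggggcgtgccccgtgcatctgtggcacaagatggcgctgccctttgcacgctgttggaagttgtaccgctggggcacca
Ctla2a: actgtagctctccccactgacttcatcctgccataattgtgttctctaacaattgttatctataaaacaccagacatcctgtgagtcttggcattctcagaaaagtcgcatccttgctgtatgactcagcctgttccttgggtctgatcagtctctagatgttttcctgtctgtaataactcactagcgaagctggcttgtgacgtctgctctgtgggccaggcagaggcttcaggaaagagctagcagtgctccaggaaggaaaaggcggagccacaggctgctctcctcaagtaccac
Lpar1: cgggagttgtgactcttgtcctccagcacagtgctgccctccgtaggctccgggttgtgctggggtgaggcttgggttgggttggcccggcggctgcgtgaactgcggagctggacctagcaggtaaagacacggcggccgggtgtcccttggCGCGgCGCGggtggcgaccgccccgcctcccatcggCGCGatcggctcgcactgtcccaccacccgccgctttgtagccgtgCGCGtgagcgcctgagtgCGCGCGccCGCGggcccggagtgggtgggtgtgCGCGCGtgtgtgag

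MicroRNA genes fell into the same kinds. Of 1005 hairpins in the RefSeq table, 38 overlapped a region of every list, 11 of the NUP98-HOXA9 and NUP98-JARID1A lists, 13 of the NUP98-JARID1A list alone, 2 of the NUP98-HOXA9 list alone and 0 of the NUP98-HOXD13 list alone. A further 1 was in the NUP98-HOXA9 and NUP98-HOXD13 lists, 1 in the NUP98-HOXD13 and NUP98-JARID1A lists, and 939 were in none. The 4 mature sequences below have their seed, bases 2 to 8, in capitals, and no seed is shared among them. On GRCm38.p6, miR-142a-5p is at chr11:87756867-87756887 and miR-142a-3p at chr11:87756903-87756925 (plus strand), miR-196b-5p at chr6:52230129-52230150 and let-7i-5p at chr10:122985698-122985719 (minus strand). The blood microRNA gene Mir142 lay in regions of 750, 496 and 1237 bp, in the order NUP98-HOXA9, NUP98-HOXD13, NUP98-JARID1A that is kept from here on. Mir196b, which sits in the Hoxa cluster, was in a region of 1594 bp in NUP98-HOXA9 cells, in none in NUP98-HOXD13 cells and in 1 of 28319 bp in NUP98-JARID1A cells. Mirlet7i, of the let-7 family, was in a region in NUP98-JARID1A cells only (1392 bp).
mmu-miR-142a-5p: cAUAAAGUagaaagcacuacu
mmu-miR-142a-3p: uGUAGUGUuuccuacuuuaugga
mmu-miR-196b-5p: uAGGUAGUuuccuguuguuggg
mmu-let-7i-5p: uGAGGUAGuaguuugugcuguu

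The lists differ in length and in breadth. On chromosomes 1 to 19 and X they hold 21537, 14608 and 24714 regions that cover 12.2, 7.48 and 16.0 Mb, with median widths of 495, 452 and 485 bp. Read depth is not given in the lists, so how much of these differences follows the depth of each library was not tested. Counts of loci, genes and wide domains, and those of the main gene groups, are given also for lists of equal length, that is the 14744 regions of each list with the highest −log10 q. The weakest region then had a −log10 q of 13.23, 2.06 and 16.52.

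The 3 treated lists had a large common set of places. Joined where they overlapped by at least 1 bp, the regions formed 29140 loci, of which 12650 (43.4%) held a region of all 3 lists. NUP98-HOXA9 and NUP98-JARID1A cells shared 4209 further loci, NUP98-HOXA9 and NUP98-HOXD13 cells 839, and NUP98-HOXD13 and NUP98-JARID1A cells 330. Regions of 1 list only made up 3307, 377 and 7428 loci. With lists of equal length there were 19483 loci, of which 10057 (51.6%) were common to all 3, and single-list loci numbered 1287, 1653 and 2798. The short NUP98-HOXD13 list was nearly contained in the others, with 94.9% of its regions overlapping the NUP98-HOXA9 list and 91.5% the NUP98-JARID1A list. In the other direction, 63.7% of NUP98-HOXA9 regions and 52.7% of NUP98-JARID1A regions overlapped the NUP98-HOXD13 list. NUP98-HOXA9 regions overlapped the NUP98-JARID1A list in 80.7% of cases, and 68.6% of NUP98-JARID1A regions overlapped the NUP98-HOXA9 list.

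**Figure D1:**
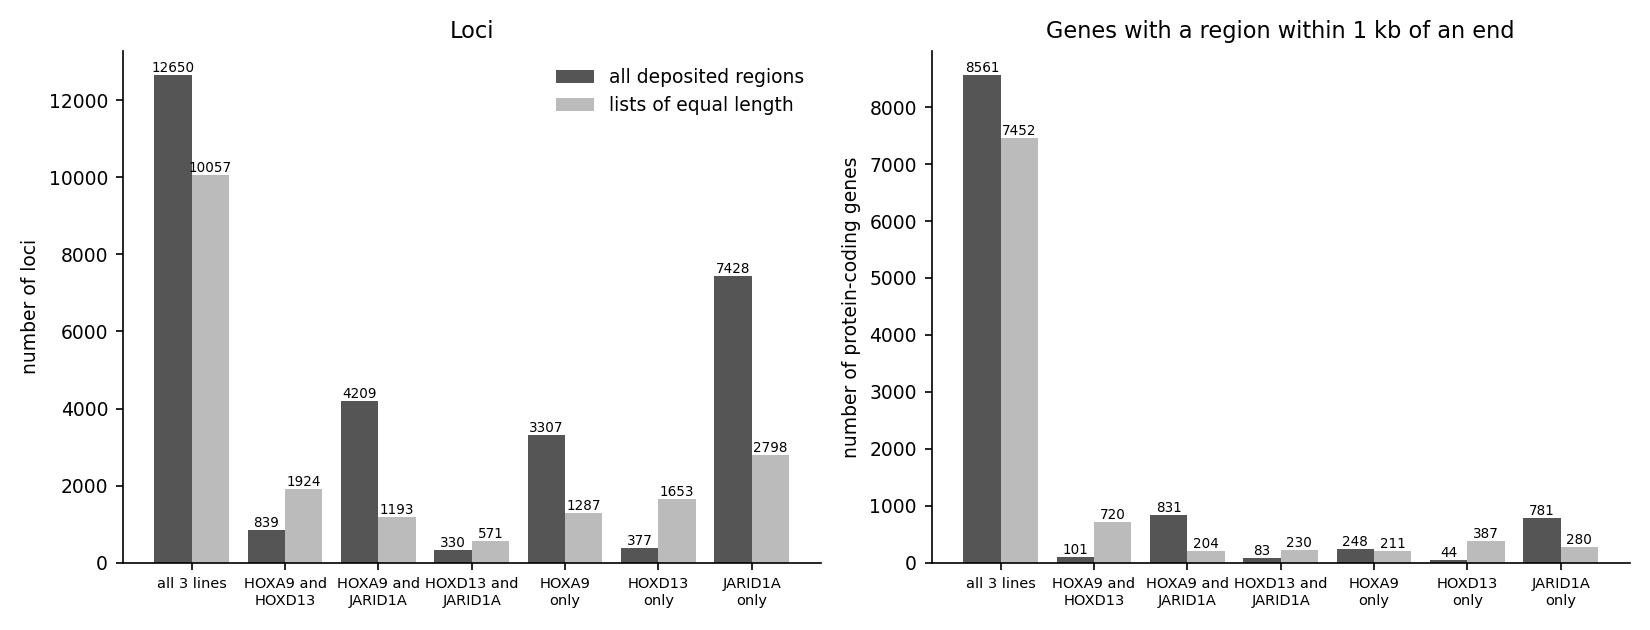
Number of loci (left) and of protein-coding genes with a region within 1 kb of an end (right) by the treated lines that hold a region there, for all deposited regions (dark bars) and for lists of equal length (light bars). The class common to all 3 lines is the largest in both panels, with 12650 loci and 8561 genes.

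Common loci were the stronger ones in each list. The fold given for a region is the authors' value, the height of its summit over local background, and it is used here only to rank regions within a list. At common loci the median fold percentile was 70.1, 56.2 and 70.0. Of the 2154 NUP98-HOXA9 regions with the highest fold (the top decile), 1 had no counterpart in NUP98-HOXD13 cells, against 1863 of as many in the bottom decile. The NUP98-JARID1A list was different at its top end. Of its 2472 highest regions, 165 had no NUP98-HOXD13 counterpart and 40 no NUP98-HOXA9 counterpart. Where each list had exactly 1 region at a locus (12014 loci), summits lay a median of 29 to 33 bp apart between lines. They were within 100 bp at 92.3% of these loci for NUP98-HOXA9 and NUP98-HOXD13, 87.8% for NUP98-HOXA9 and NUP98-JARID1A, and 87.2% for NUP98-HOXD13 and NUP98-JARID1A. Median widths there were 620, 478 and 675 bp.

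Most common loci lay at gene ends, and most overlapped methylated histone H3 lysine 4 of treated NUP98-HOXA9 cells and menin of treated NUP98-HOXD13 cells. A locus within 1 kb of an annotated gene end made up 59.6% of the common class, and 10.1%, 13.8% and 14.8% of the single-list classes. Regions of trimethylated lysine 4 (H3K4me3) from treated NUP98-HOXA9 cells overlapped 56.4% of common loci (95% Wilson interval 55.5 to 57.3, counting error only). The same list overlapped 3.02%, 3.98% and 7.42% of single-list loci. Menin regions from treated NUP98-HOXD13 cells overlapped 94.5% of common loci, 67.2% of those of NUP98-HOXA9 and NUP98-HOXD13, 40.1% of those of NUP98-HOXA9 and NUP98-JARID1A, and 53.3% of those of NUP98-HOXD13 and NUP98-JARID1A. In the single-list classes the share was 15%, 35.5% and 6.52%. That menin list comes from 1 of the lines compared, and whether its overlap follows the line was not tested. The menin list of treated NUP98-HOXA9 cells, with only 403 regions, overlapped 315 common loci (2.49%). Of common loci outside genes, 7.19% overlapped H3K4me3 of treated NUP98-HOXA9 cells, while 91.6% overlapped menin of treated NUP98-HOXD13 cells. These 2 lists come from different lines.

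**Figure D2:**
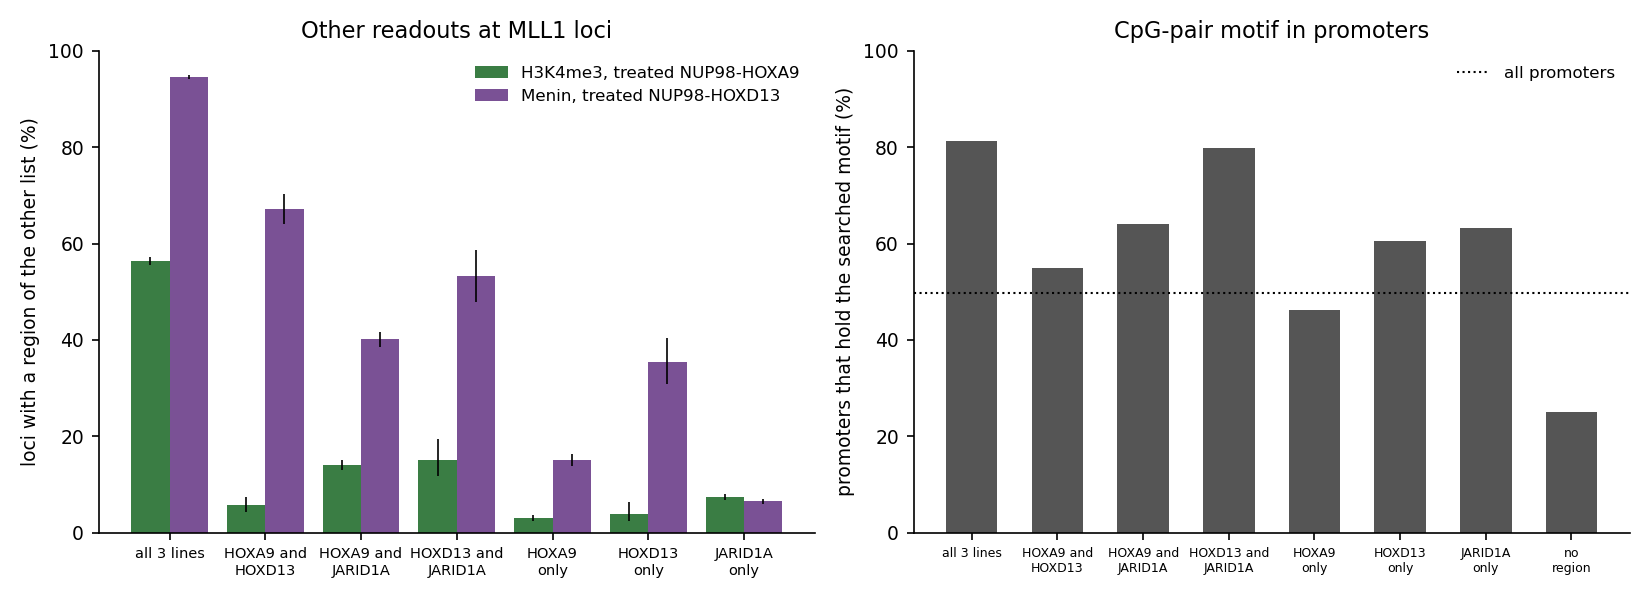
Left, share of MLL1 loci of each class (%, bars; error bars, 95% Wilson intervals) that overlap an H3K4me3 region of treated NUP98-HOXA9 cells or a menin region of treated NUP98-HOXD13 cells. Right, share of promoters (%) that hold CGCG by class of gene, with all promoters as a dotted line. Common loci are at 56.4% and 94.5% on the left, and promoters of common genes at 81.3% on the right.

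At genes the common set was larger still. Among 21631 protein-coding genes of these chromosomes, 9741 (45.0%) had a NUP98-HOXA9 region within 1 kb of an annotated end, 8789 (40.6%) a NUP98-HOXD13 region and 10256 (47.4%) a NUP98-JARID1A region. In all, 10649 genes (49.2%) had a region in at least 1 line and 8561 (39.6%) in all 3, which is 80.4% of those with any. NUP98-HOXA9 and NUP98-JARID1A shared 831 more (3.84%), NUP98-HOXA9 and NUP98-HOXD13 101 (0.467%), and NUP98-HOXD13 and NUP98-JARID1A 83 (0.384%). Genes of a single list numbered 248 (1.15%) in NUP98-HOXA9 cells, 44 (0.203%) in NUP98-HOXD13 cells and 781 (3.61%) in NUP98-JARID1A cells.

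Which line had genes of its own depended on list length. In lists of equal length, gene ends with a region made up 39.7%, 40.6% and 37.8% of all genes, 43.8% had a region in any line and 34.5% (7452) in all 3. NUP98-HOXA9 and NUP98-HOXD13 then shared 720 genes (3.33%) without NUP98-JARID1A. The other pairs shared 204 (0.943%, NUP98-HOXA9 and NUP98-JARID1A) and 230 (1.06%, NUP98-HOXD13 and NUP98-JARID1A). Single-list genes were 211 (0.975%), 387 (1.79%) and 280 (1.29%). In both settings, 68 genes were NUP98-HOXA9-only, 44 NUP98-HOXD13-only and 159 NUP98-JARID1A-only.

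Many genes of a single list had regions of the other lines elsewhere over the gene. Of the 248 NUP98-HOXA9 genes, 161 (64.9%) had no region of the other lists anywhere over the gene and 2 kb on both sides. The same held for 26 of 44 NUP98-HOXD13 genes (59.1%) and for 482 of 781 NUP98-JARID1A genes (61.7%). The 6 NUP98-HOXA9-only genes with the highest fold, among them Rgs17, Nudcd3, Mphosph9, Gdpd3 and Tctn2, all had regions in the other lines. Rgs17, a regulator of G protein signalling, was covered by 1189, 884 and 871 bp over the gene and its flanks. Nudcd3, which encodes a dynein cochaperone, was covered by 770, 496 and 761 bp. With windows of 2.5 kb, 0 of these 6 were still single-list genes, against 3 of 6 in NUP98-HOXD13 (Defb20, Ctla2a and Tcf7l2) and 6 of 6 in NUP98-JARID1A (among them Nkx2-3, Hoxa6, Mnat1, Six4 and Rnf220).

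Genes with no region of the other lines over the whole gene differed in rank. In NUP98-HOXA9 cells those with the highest fold were Smok3c (fold percentile 62.6, 549 bp) and Spryd4 (59.9, 468 bp). In NUP98-HOXD13 cells they were Defb20, a defensin gene (59.5, 272 bp), Ctla2a (44, 340 bp) and Mfhas1 (36.4, 371 bp). These are narrow regions from the middle of each list. In NUP98-JARID1A cells the leading genes included Nkx2-3 (99.9, 7568 bp covered) and the neighbours Mnat1 and Six4 (99.3). Genes covered in NUP98-JARID1A cells alone thus included some with nearly the highest fold of that list. Among loci of a single list, whatever their place, the highest of NUP98-JARID1A cells was that of Nkx2-3 at percentile 99.9. The highest of NUP98-HOXA9 cells alone was at 90.6, 64736 bp from the potassium channel gene Kcnc2, and that of NUP98-HOXD13 cells alone was at 69.8, in Itsn1.

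Loci of a pair of lines had their own leading genes. For NUP98-HOXA9 and NUP98-HOXD13 the highest locus lay over Hoxc5, with fold percentiles of 98.7 and 82.6, followed by 1 that was 93661 bp from Lpar1 (86.4 and 80.8). Hoxc6 was also among the leading loci (94.9 and 72.9). For NUP98-HOXA9 and NUP98-JARID1A the highest was inside Dpyd, the gene of a pyrimidine-degrading enzyme (90.0 and 99.3). The leading loci of NUP98-HOXD13 and NUP98-JARID1A were inside Nmnat2, an NAD synthesis gene (67.5 and 91.4), and at the end of Stpg2 (61.0 and 86.2). Ranks were taken after the values were seen, so these names describe the lists and support nothing else.

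Wide domains set the NUP98-JARID1A list apart by count. Regions of at least 2 kb numbered 84 of 21537 (0.390%) in NUP98-HOXA9 cells, 33 of 14608 (0.226%) in NUP98-HOXD13 cells and 627 of 24714 (2.54%) in NUP98-JARID1A cells. They held 2.21%, 1.51% and 13.1% of the covered bases. In lists of equal length the counts were 82, 33 and 612, and of at least 4 kb there were 9, 7 and 122 in the full lists. The 7 of NUP98-HOXD13 cells lay at 5 loci that were also wide in the menin list of treated NUP98-HOXA9 cells. Genes within 2 kb of a domain of at least 2 kb numbered 94 (0.435% of all genes), 25 (0.116%) and 703 (3.25%). In all, 19 genes (0.0878%) had 1 in every line.

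**Figure D3:**
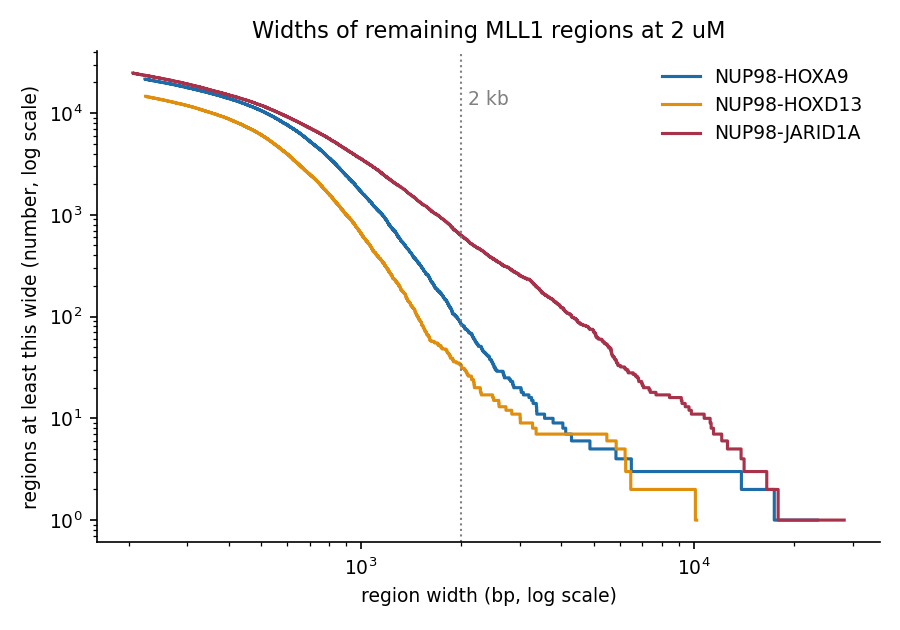
Number of regions (vertical, log scale) at least as wide as the width on the horizontal axis (bp, log scale), 1 line per treated cell line, with 2 kb as a dotted line. The NUP98-JARID1A curve holds 627 regions at 2 kb, against 84 and 33.

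At 24 loci every treated line had a region of at least 2 kb. Of these, 9 had a region in the menin list of treated NUP98-HOXA9 cells, which holds only 403 regions in all. The widest shared domain was near the start of the assembled part of chromosome 9 (chr9:3014546-3038076), with regions of 23531, 10201 and 16573 bp. Its fold percentiles were only 0.235, 0.448 and 0.156, at the bottom of each list. The H3K4me3 and menin lists of treated NUP98-HOXA9 cells had regions of 38086 and 37903 bp there. Whether such a domain reflects MLL1 binding was not tested. A locus at the end of Mid1 on chromosome X (chrX:169989494-170007490) had regions of 17458, 10112 and 17931 bp. The ribosomal RNA pseudogene Rn18s-rs5 (chr17:39842988-39848838) had nearly the same width in every line, 5836, 5845 and 5851 bp. Tmem267 had 6492, 6242 and 7005 bp inside the gene. Fold percentiles were 0.248, 1.26 and 0.485 at Tmem267, 30.3, 71.3 and 9.25 at Mid1, and 89.0, 99.9 and 99.4 at Rn18s-rs5. At these 9 loci 8 were also wide in the menin list, and 1 was at the end of a gene.

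Of the other 15 shared wide domains, 14 lay over a protein-coding gene. All 15 overlapped H3K4me3 of treated NUP98-HOXA9 cells and menin of treated NUP98-HOXD13 cells, 10 were at gene ends, and the NUP98-JARID1A region was the widest at 11. Zfp36l2, which encodes an mRNA decay factor, had 3375, 2838 and 4136 bp (chr17:84184821-84188956). Kdm6b, the gene of a histone H3 lysine 27 demethylase, had 2531, 2599 and 3261 bp inside the gene. Foxo3, whose promoter is printed above, had 3289, 2147 and 4716 bp, and Sp3 had 2506, 2149 and 2557 bp. Sp3 therefore had almost equal domains in the 3 lines, while that of Foxo3 was widest in NUP98-JARID1A cells.

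Some of these 15 domains differed little between lines and some were much longer in NUP98-JARID1A cells. Ywhaz, a 14-3-3 protein gene, had 2690, 2485 and 2724 bp. The promoter between Zfp91 and Lpxn had 2527, 2284 and 2343 bp. Tgif1, which encodes a TALE homeodomain repressor, had 2219, 2282 and 6189 bp. Midn, the gene of midnolin, had 2210, 2007 and 5046 bp. The long non-coding RNA gene Dleu2 had 2789, 2191 and 4865 bp. The shared promoter of Hnrnpa2b1 and Cbx3 (an RNA-binding protein and a heterochromatin protein) had 2483, 2187 and 3623 bp. Rrbp1, Kansl1l, Zc3h4, Atxn2l and Anp32b complete the set, with 2004 to 2505 bp in the HOX fusion lines and 2194 to 3407 bp in NUP98-JARID1A cells.

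NUP98-JARID1A cells had wide domains where the other lines had narrow regions. The 627 regions formed 623 loci, of which 499 (80.1%) were at a gene end, 583 (93.6%) overlapped H3K4me3 of treated NUP98-HOXA9 cells and 547 (87.8%) menin of treated NUP98-HOXD13 cells. H3K4me3 was itself at least 2 kb wide at 183. In NUP98-HOXA9 cells 536 of the 623 had only regions under 2 kb and 32 had none. In NUP98-HOXD13 cells 531 had only narrower regions and 68 had none. At the 568 loci that were wide in NUP98-JARID1A cells alone, the median widest region was 905.5, 670.0 and 2656 bp.

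The widest was a single region over the Hoxa cluster, from Hoxa3 to Hoxa10 (chr6:52208026-52236344), of 28319 bp, where the other lines had regions of at most 3255 and 1437 bp. A domain of 14166 bp on chromosome 15 lay between genes, 22257 bp from the long non-coding RNA gene D130051D11Rik and 29657 bp from Mirlet7c-2. There NUP98-HOXA9 cells had 228 bp and NUP98-HOXD13 cells no region. Cdkn1b, the gene of the cell cycle inhibitor p27, had 1351, 1205 and 13873 bp. Smad7, an inhibitor of TGF-beta signalling, had 1283, 500 and 11279 bp. At both genes the regions of the HOX fusion lines were under 2 kb. All but the 500 bp of NUP98-HOXD13 cells at Smad7 were above the 90th percentile of width in their lists (936 bp in NUP98-HOXA9, 821 bp in NUP98-HOXD13).

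Some genes of this group, picked here after their values were seen, are known from blood cells. Gata2, whose promoter is printed above, had a domain of 9835 bp in NUP98-JARID1A cells, a region of 356 bp in NUP98-HOXD13 cells and none in NUP98-HOXA9 cells. Bcl11a, a repressor of fetal globin genes, had 0, 573 and 9219 bp. Bcor, the gene of a BCL6 corepressor, had 336, 0 and 9675 bp at its widest domain. Zeb2, a zinc finger regulator of myeloid development, had 9173 bp in NUP98-JARID1A cells and no region at that locus in either other line, although narrower regions lay elsewhere over the gene.

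At 29 loci that were at least 2 kb wide in NUP98-JARID1A cells, neither other line had any region. Of these, 23 overlapped a protein-coding gene and 16 overlapped H3K4me3 of treated NUP98-HOXA9 cells. Nkx2-3 led with 12136 bp. Zeb2 had 9173 bp, Rnf220, a ubiquitin ligase gene, 5829 bp, Six4 5042 bp and Erg, an ETS factor of blood stem cells, 5000 bp. Zfp521, a progenitor zinc finger gene, had 3794 bp, Pik3c2b 3579 bp, Parp14 3485 bp and the thromboxane synthase gene Tbxas1 3263 bp. The H3K4me3 regions at Zeb2, Rnf220 and Erg come from NUP98-HOXA9 cells, which had no MLL1 region there.

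**Figure D4:**
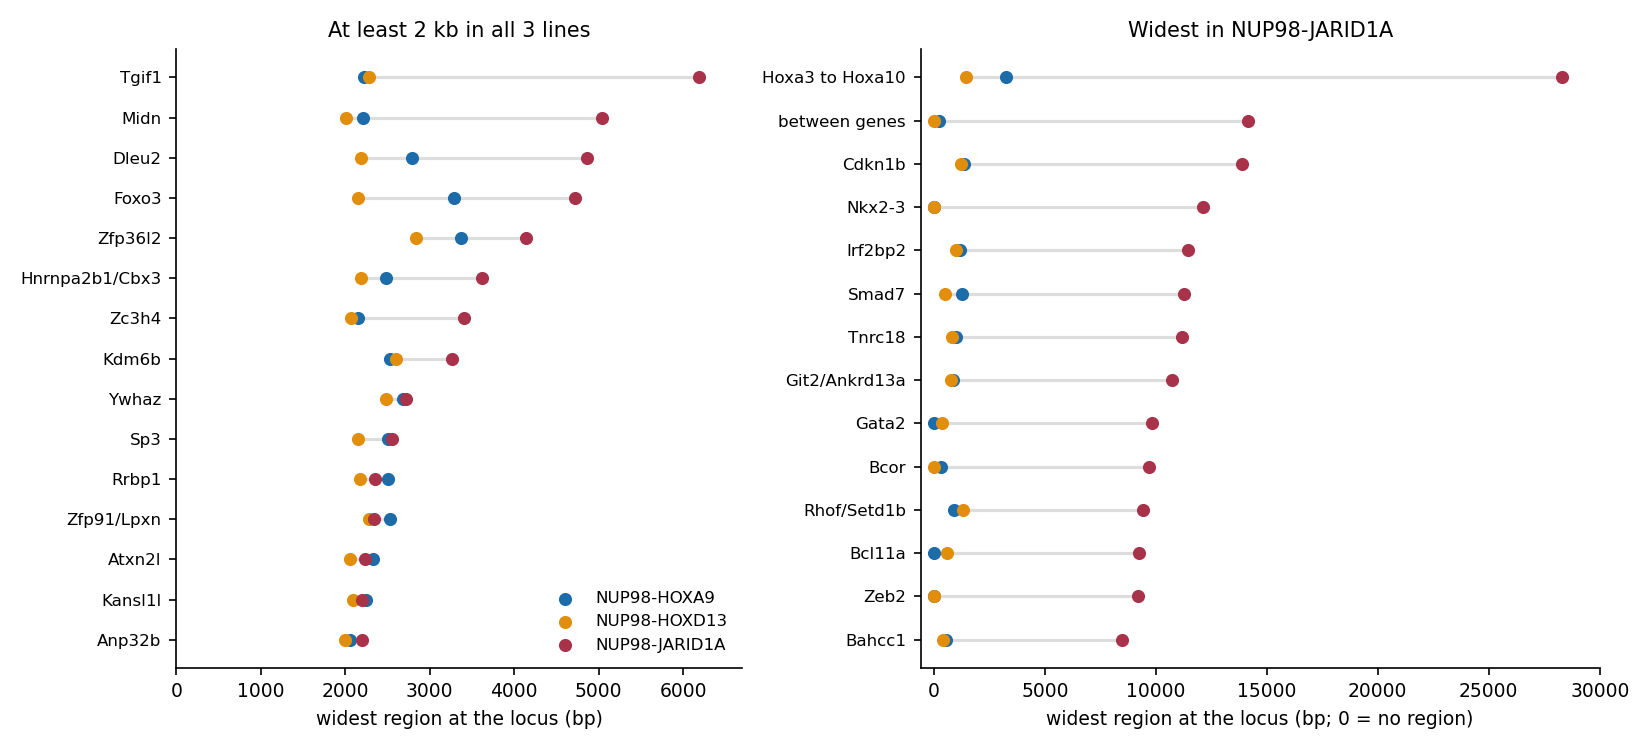
Width (bp) of the widest region at each locus in NUP98-HOXA9 (blue), NUP98-HOXD13 (orange) and NUP98-JARID1A (red) cells, joined by a grey line, for the 15 domains of at least 2 kb in all 3 lines (left) and 14 of the 15 widest of NUP98-JARID1A cells (right), both without loci in the menin list of NUP98-HOXA9 cells. On the right the red point of the Hoxa domain is at 28319 bp and the other points of that row are at 3255 and 1437 bp.

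Domains shared by a pair of lines were few outside the pair of NUP98-HOXA9 and NUP98-JARID1A, which had 31. Among them were Brd2, a bromodomain gene (3025, 955 and 7698 bp), Cited2 (3075, 822 and 3251 bp) and the myeloid factor gene Cebpb (2201, 1628 and 2551 bp). NUP98-HOXA9 and NUP98-HOXD13 shared 2, at the cytokine receptor gene Crlf2 (2877, 2594 and 1494 bp) and at Tbc1d17, and NUP98-HOXD13 and NUP98-JARID1A shared 0. NUP98-HOXD13 cells alone had 2. At Hoxb8 the widths were 1655, 2184 and 1513 bp, and at Kat6b, a histone acetyltransferase gene, 1296, 2084 and 1879 bp, so the lines lay close together at both. Outside that locus, but over Hoxb8 or its 2 kb flanks, NUP98-JARID1A cells also had a region of 2143 bp.

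The 25 domains of NUP98-HOXA9 cells alone included HOX genes and a HOX cofactor. Pbx3, which encodes a TALE partner of HOX proteins, had an intragenic region of 4290 bp where NUP98-HOXD13 cells had 880 bp and NUP98-JARID1A cells none. A neighbouring Pbx3 region had 2252, 0 and 0 bp. Hoxc6 had 4122, 1058 and 0 bp. Snx10, a sorting nexin gene, had 4041, 0 and 0 bp at its 3′ end. At its other end, the promoter at chr6:51523834-51524133 lay wholly in a NUP98-JARID1A region and in none of the other lists. Skap2, an adaptor gene beside the Hoxa cluster, had 3371, 0 and 539 bp inside the gene. Runx1, a master regulator of blood formation, had 2312, 388 and 1005 bp at 1 intragenic domain, and Zfp52 had 2016, 0 and 0 bp. Of the 25, 11 overlapped H3K4me3 of the same line, which was read at 96 hours and not at 72. The Pbx3, Snx10 and Skap2 domains were not among those 11.

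Of the HOX clusters, Hoxa and Hoxb had MLL1 regions in all 3 treated lists, Hoxc in those of the HOX fusion lines only and Hoxd in none. Whether MLL1 was at these clusters before treatment was not examined. Over the Hoxa cluster NUP98-HOXA9 cells had 14 regions that covered 16572 bp, NUP98-HOXD13 cells 10 with 6840 bp and NUP98-JARID1A cells 8 with 35934 bp. Over the Hoxb cluster the lines had 18, 11 and 21 regions with 16312, 6799 and 27890 bp. Over the Hoxc cluster there were 13 regions with 17304 bp in NUP98-HOXA9 cells, 10 with 7040 bp in NUP98-HOXD13 cells and 0 in NUP98-JARID1A cells. The Hoxd cluster had 0 regions in all 3 lists. A Hoxc gene end was called for 5, 4 and 0 of 9 genes (55.6%, 44.4% and 0%), beside 45.0%, 40.6% and 47.4% of all genes. A Hoxd gene end was called for 0 of 9 in each line.

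Within the Hoxa cluster every line had gene-end regions at Hoxa3, Hoxa7, Hoxa9 and Hoxa10, and the lines differed at some other genes. Hoxa3 was covered by 3255, 634 and 7042 bp. Hoxa7 was covered by 4980, 2355 and 6951 bp, Hoxa9 by 5322, 1722 and 8274 bp and Hoxa10 by 2164, 1305 and 10994 bp. Hoxa6 (2647 bp), Hoxa11 (4483 bp) and Hoxa13 (229 bp) were covered in NUP98-JARID1A cells only. Gene ends were called for 5, 4 and 7 of 11 Hoxa genes (45.5%, 36.4% and 63.6%). For Hoxb genes the counts were 7, 6 and 7 of 10. Of all genes, 45.0%, 40.6% and 47.4% were called. The Hoxa share was thus near that of all genes in NUP98-HOXA9 cells, below it in NUP98-HOXD13 cells and above it in NUP98-JARID1A cells. The Hoxb share was above that of all genes in every line. In the Hoxb cluster, Hoxb3 was covered by 9348, 2334 and 10852 bp and Hoxb6 by 1505, 339 and 8325 bp, Hoxb2 by 0, 0 and 1015 bp, and Hoxb9 by 685, 571 and 0 bp. The regions at Hoxa13 and Hoxb2 were not in the lists of equal length.

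In the Hoxc cluster, Hoxc4 was covered by 5235 bp in NUP98-HOXA9 cells and 1907 bp in NUP98-HOXD13 cells. Hoxc5 had 5326 and 2235 bp, Hoxc6 5913 and 3441 bp and Hoxc8 3682 and 196 bp. H3K4me3 of treated NUP98-HOXA9 cells covered 11291 bp of this cluster in 9 regions. In the fourth line of the series, NUP98-NSD1, for which the treated MLL1 list is at 200 nM and therefore not comparable, MLL1 regions covered 12482 bp of the Hoxa cluster and 0 bp of the Hoxc cluster.

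**Figure D5:**
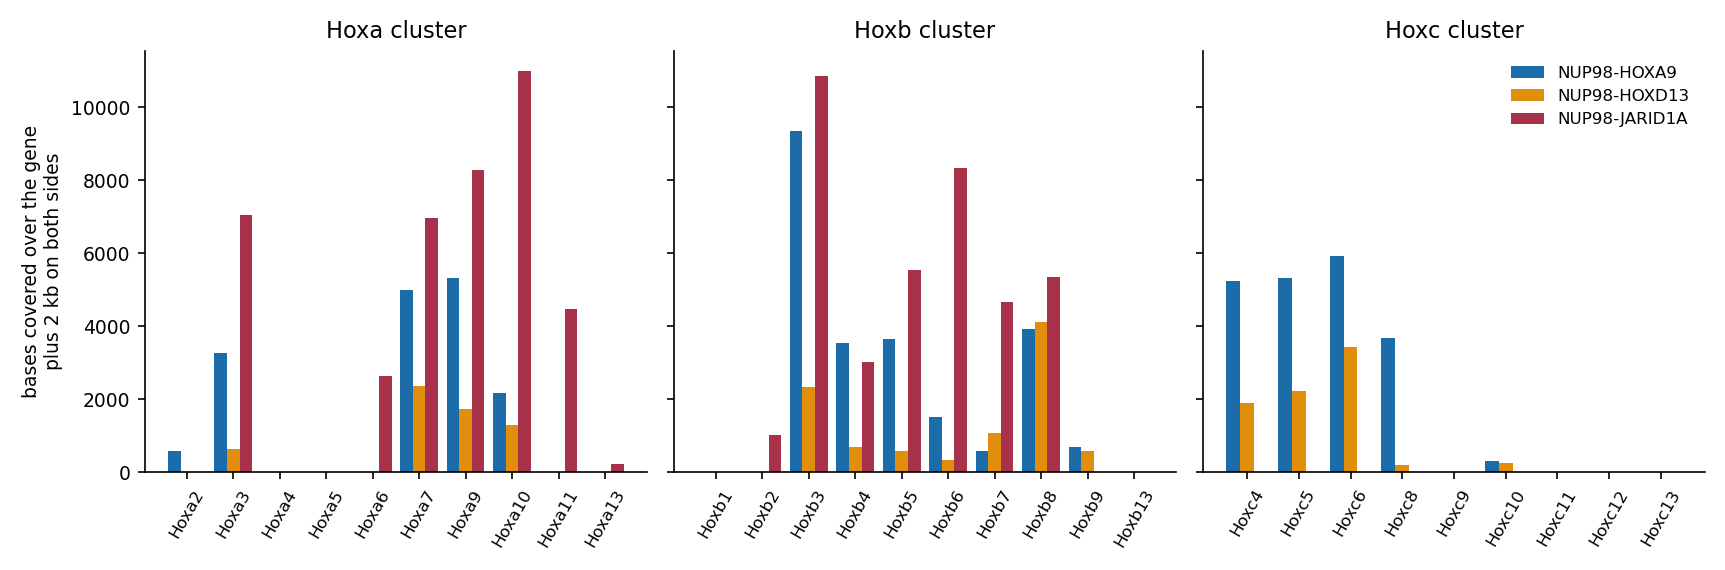
Bases covered by MLL1 regions over each gene and 2 kb on both sides (bars, 1 per treated line) for genes of the Hoxa, Hoxb and Hoxc clusters, ordered by number, without 1 Hoxa gene that is not reported here. Hoxc bars are present for the HOX fusion lines only, while Hoxa6 and Hoxa11 have only NUP98-JARID1A bars, of 2647 and 4483 bp.

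Of 31 genes known as targets of MLL1 and menin in leukaemia, 28, 25 and 31 had a region over the gene or its flanks. Of all 21631 genes, 11761, 10485 and 12429 did. Most of the 31 had their longest cover in NUP98-JARID1A cells. Gene-end regions were called for 17, 16 and 25 (54.8%, 51.6% and 80.6%, beside 45.0%, 40.6% and 47.4% of all genes), and for 11, 16 and 20 at equal list length. Within 2 kb of a wide domain were 3, 0 and 17, while of all genes 0.435%, 0.116% and 3.25% were. Neighbouring genes can share a domain: Hoxa7, Hoxa9 and Hoxa10 are counted in the 17 through the same region of 28319 bp. Their median covered length was 1404, 833.0 and 3759 bp, beside 340.0, 0 and 408.0 bp over all genes. The NUP98-JARID1A length was the longest for 27 of the 31, while over all genes with any cover this was so for 65.2%. At equal list length it was the longest for 22 of 29 with cover, beside 55.9% over all genes. Meis1, the HOX cofactor, was covered by 984, 678 and 3582 bp, but at equal list length by 448, 678 and 562 bp, so its long cover in NUP98-JARID1A cells came from weaker regions of that list. Myc had 1488, 990 and 5935 bp and Cdk6, the kinase of early cell cycle entry, 4004, 2398 and 9196 bp. Mef2c, a transcription factor gene, went the other way, with 1259, 1382 and 947 bp, and had no region at a gene end in any line. Jmjd1c had 1220, 649 and 3729 bp, Eya1 974, 655 and 1693 bp and the receptor gene Flt3 572, 551 and 1173 bp (572, 551 and 562 bp at equal list length). For NUP98-HOXA9 cells the summed length over this list was 65751 bp in the full list and 43347 bp at equal list length. In such sums, bases within the flanks of several genes were counted for each gene.

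The other HOX cofactors differed by gene. Of 11, 7, 8 and 8 had a gene-end region (6, 8 and 6 at equal list length). The full counts are 63.6%, 72.7% and 72.7%, beside 45.0%, 40.6% and 47.4% of all genes. A wide domain lay at 2, 1 and 2, beside 0.435%, 0.116% and 3.25% of all genes. Pbx3 was covered by 8505, 2224 and 947 bp, so NUP98-HOXA9 cells had the longest cover and NUP98-JARID1A cells the shortest. Tgif2 had 410, 546 and 1190 bp, and 410, 546 and 0 bp at equal list length.

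Most regulators of blood stem and progenitor cells had their longest cover in NUP98-JARID1A cells. Of 25, 20 were longest in NUP98-JARID1A cells (90.9% of those with any cover, beside 65.2% over all genes), and at equal list length 17 of 19 with cover. Gene-end regions were called for 13, 12 and 19, and at equal list length for 11, 12 and 13, so the larger number in NUP98-JARID1A cells nearly went. The full counts are 52.0%, 48.0% and 76.0% of the list, beside 45.0%, 40.6% and 47.4% of all genes. A wide domain lay at 1, 0 and 10 genes, beside 0.435%, 0.116% and 3.25% of all genes. Gata2 was covered by 0, 356 and 10043 bp. Myb had 2094, 732 and 6584 bp, Fli1, an ETS factor, 2977, 1078 and 7251 bp, and Runx1 7295, 3597 and 10079 bp. Kit, the SCF receptor (0, 0 and 1052 bp), Mecom (0, 0 and 562 bp) and Mycn (0, 0 and 1598 bp) were covered in NUP98-JARID1A cells only, and none of these regions was in the list of equal length. The summed length was 35220, 18440 and 93705 bp, which is 0.288%, 0.246% and 0.585% of the bases in each list, and 22177 bp in NUP98-HOXA9 cells at equal list length.

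Of 33 myeloid differentiation genes, 26, 19 and 27 had a gene-end region (78.8%, 57.6% and 81.8%, beside 45.0%, 40.6% and 47.4% of all genes), and 21, 19 and 19 at equal list length. A wide domain lay at 2, 0 and 6, beside 0.435%, 0.116% and 3.25% of all genes. Cebpa, the factor that starts granulocyte development, was covered by 860, 760 and 3087 bp, and Spi1 (PU.1) by 1957, 555 and 5593 bp. Cebpe, of late granulocytes, had 715, 0 and 2788 bp, and Itgam, an integrin of mature myeloid cells, 1032, 0 and 1371 bp. The primary granule genes differed among themselves. Mpo had 361, 397 and 0 bp, Elane 395, 0 and 0 bp, Ctsg 607, 357 and 396 bp and Prtn3 2279, 1510 and 3164 bp. Cd177 (593, 0 and 1965 bp), Ltf (0, 0 and 1092 bp) and Ngp (0, 0 and 581 bp), neutrophil genes, were longest in NUP98-JARID1A cells, also at equal list length. There NUP98-JARID1A cells had 1056 bp at Cd177, 247 bp at Ltf and 581 bp at Ngp. Beyond the 2 kb flank, 3954 bp from Ngp, lay a locus of the NUP98-HOXA9 and NUP98-JARID1A lists (fold percentiles 85.1 and 97.2).

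Genes of the MLL1 machinery and general genes were mostly called in all 3 lines. Of 16 genes of MLL and menin complexes, 14, 13 and 13 had a gene-end region (87.5%, 81.2% and 81.2%, beside 45.0%, 40.6% and 47.4% of all genes), and 13, 13 and 13 at equal list length. A wide domain lay at 0, 0 and 6, beside 0.435%, 0.116% and 3.25% of all genes. Kmt2a itself had 958, 680 and 2885 bp and Men1 (menin) 1043, 808 and 864 bp. Rbbp5, a core subunit, had 673, 581 and 0 bp. Among 16 MLL fusion partner and elongation genes 14, 13 and 14 were called (13, 13 and 13 at equal list length), and 0, 0 and 1 had a wide domain. Of the 5 genes of the fusions and their partners, 4, 3 and 3 were called (3, 3 and 3 at equal list length): Nup98 had 1122, 1052 and 1159 bp, Kdm5a 1085, 752 and 1257 bp and Hoxd13 no region in any line. Nsd1 had 646, 255 and 2039 bp.

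Of 28 housekeeping genes, 26, 26 and 26 had a gene-end region, in the full lists and at equal list length. This is 92.9% in each line, beside 45.0%, 40.6% and 47.4% of all genes. A wide domain lay at 1, 1 and 5, beside 0.435%, 0.116% and 3.25% of all genes. The median covered length was 1210, 796.0 and 1372 bp. Actb had 2325, 2141 and 3188 bp and Gapdh 2126, 1960 and 3547 bp. At both genes the order of the lines was that of the whole lists. Of 25 cell cycle regulators, 22, 21 and 22 were called (88.0%, 84.0% and 88.0%), and 18, 21 and 20 at equal list length. A wide domain lay at 0, 0 and 7 of them. Rbl2, a pocket protein gene, was covered in NUP98-HOXA9 cells only (593, 0 and 0 bp). Of 26 interferon and antiviral genes, 19, 14 and 18 were called (73.1%, 53.8% and 69.2%, beside 45.0%, 40.6% and 47.4% of all genes), but 12, 14 and 13 at equal list length. Ifit3 (307, 0 and 0 bp) and Oasl2 (247, 0 and 0 bp) had regions in NUP98-HOXA9 cells only, while Ddx58, the RNA sensor RIG-I, had 228, 0 and 1407 bp. The regions of NUP98-HOXA9 cells at Rbl2, Ifit3, Oasl2 and Ddx58 were not in the list of equal length.

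Few gene ends of markers of other cell types were called. Erythroid and megakaryocyte genes were called for 3, 2 and 3 of 17, lymphoid genes for 3, 2 and 4 of 21, mast cell and basophil genes for 1, 0 and 2 of 10, and genes of tissues outside the blood for 1, 0 and 0 of 20. At equal list length the counts were 3, 2 and 2, then 2, 2 and 2, then 0, 0 and 1, and 0 in each line. The shares stand beside 45.0%, 40.6% and 47.4% over all genes. Among defining markers, 8, 5 and 6 of 8 blood and myeloid markers (Ptprc, Spi1, Cebpa, Mpo, Elane, Itgam, Csf3r and Lyz2) had a region over the gene and its flanks. Lymphoid markers had 1, 1 and 0 of 5, with Cd3e, Rag1 and Ebf1 at 0 bp in every line. Erythroid markers had 2, 2 and 3 of 5, mast cell markers 1, 0 and 1 of 3, and non-blood markers 1, 1 and 1 of 6 (Col1a1, with 817, 273 and 548 bp). By this wider measure 11761, 10485 and 12429 of all 21631 genes had a region, so the erythroid marker counts were near the share of all genes. In the fuller erythroid and megakaryocyte list, 5, 5 and 6 of 17 had a region. A region of MLL1 is not a measure of expression, so these counts describe the lists and do not type the cells.

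The genes with the longest cover were not the same in each line. Gse1, a chromatin corepressor gene, was among the longest in all 3, with 8644, 8392 and 15298 bp. Vmp1 had 8499, 3543 and 5345 bp and, like Pbx3, was longest in NUP98-HOXA9 cells. Bcor had 1796, 280 and 20517 bp, Tnrc18 3291, 1400 and 13689 bp and Foxp1, a forkhead factor gene, 7813, 2637 and 13102 bp.

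Promoters of common genes were rich in CpG. Of the 21631 genes, 17274 had an entry in the promoter table. Promoters of genes with a region in all 3 lines had a median GC content of 62.7%, a CpG observed over expected ratio of 0.83 and CGCG in 81.3%. Promoters of genes with no region had 50.7%, 0.27 and 25%. Single-list genes lay between, with CGCG in 46.3%, 60.6% and 63.2% of promoters. Genes of NUP98-HOXA9 and NUP98-HOXD13 had it in 54.9%, those of NUP98-HOXA9 and NUP98-JARID1A in 64.0% and those of NUP98-HOXD13 and NUP98-JARID1A in 79.8%. Among the promoters printed above, those of Foxo3 and Sp3 held 8 and 10 matches, and those inside wide domains of NUP98-JARID1A cells held 0 (Hoxa9 and Six4), 1 (Nkx2-3) and 6 (Gata2).

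Other short motifs were searched on both strands, and none of the motifs contains another. TATAAA was in 5.38% of promoters of common genes, 18.9% of those with no region and 12.7% of all. CCAAT was in 41.3% of common promoters, 28.8% of NUP98-JARID1A-only promoters and 38.5% of all. GGAAG, the core of ETS factor sites, was in 77.5% of common promoters and 72.2% of all. TGACTCA, an AP-1 site, was in 2.58% of common promoters, 6.47% of NUP98-HOXA9-only promoters and 4.69% of all. A match describes letters in this window only.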

How the data were processed

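MLL1 was measured by ChIP-seq in 1 library per line. The authors' deposited lists are narrow peaks, 1 list per library. The submitters' processing notes name build mm10, the peak caller MACS2, bedtools and SAMtools, STAR in version 2.7.5a, Picard in version 2.9.4 and bcl2fastq in version 2.20.0.422. What each step did, the settings of MACS2 and its control libraries: not given in the sources used here. Each deposited row gives a score, a fold (a ratio of summit height over local background) and −log10 p and q values of its region, as the authors computed them. Read depth is not given, so precision per region is unknown, and Wilson intervals (95%) cover counting error only.

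The members, gene lists and tests were chosen with earlier results of these data known. Regions off chromosomes 1 to 19 and X (202, 136 and 236 rows) were left out. Regions sharing at least 1 bp were joined into loci. A gene was called where a region lay within 1 kb of either annotated end, in the RefSeq gene table of build GRCm38.p6. Covered length counts bases inside regions, from 2 kb before a gene to 2 kb after it, and a wide domain is a region of at least 2 kb. The design holds no test because each line is 1 library. Genes were named by rule: the widest shared domains, the highest folds and longest lengths per line and per pair, 21 fixed genes and up to 4 members per list called in 1 or 2 lines. Others were named after their values were seen. Some genes that these rules name are not reported here. The 18 lists cover the 4 Hox clusters, HOX cofactors, menin-MLL targets, stem and progenitor, myeloid, erythroid and megakaryocyte, lymphoid, mast cell and non-blood genes, MLL complex, elongation, fusion, cell cycle, interferon and housekeeping genes.

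Alternatives were lists of equal length, −log10 q of at least 5, 50% overlap, windows of 2.5 kb, the 5′ end only, 10 kb flanks, domains of at least 4 kb, regions under 1 kb apart joined, and a pair chosen after seeing the data. Overlap and interval code was tested on simulated data. Python 3.11.15, NumPy 2.4.6, pandas 2.3.3 and SciPy 1.17.1 were used.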

Additional observations from a re-analysis of the deposited data

How the results depend on the processing

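No paired analysis was possible because each line has 1 library and all share the replicate number 1. Common loci and common gene ends kept their size under every alternative run: loci in all 3 lists numbered 10057 at equal list length, 12173 at a −log10 q of at least 5 and 12634 with 50% overlap, and common gene ends numbered 7267 to 9255. At a −log10 q of at least 5 all 21 main results stayed within 1.5 times of the value reported. Equal list length moved the genes of a pair from 101 to 720 (NUP98-HOXA9 and NUP98-HOXD13), 831 to 204 (NUP98-HOXA9 and NUP98-JARID1A) and 83 to 230 (NUP98-HOXD13 and NUP98-JARID1A). It moved single-list genes from 44 to 387 in NUP98-HOXD13 and from 781 to 280 in NUP98-JARID1A cells, where fewer regions entered. The 5′ end alone gave 155 NUP98-HOXA9-only genes of 17274. Without genes that had a region of another list within 2 kb, an alternative chosen after seeing the data, single-list genes were 161, 26 and 482. Domains of at least 4 kb numbered 9, 7 and 122, with 5 shared loci. All 5 were also wide in the menin list of treated NUP98-HOXA9 cells. No other locus had a NUP98-HOXD13 region of at least 4 kb. With regions under 1 kb apart joined, wide domains numbered 371, 121 and 1065, with 102 shared. Without loci in the menin list of NUP98-HOXA9 cells, also chosen after seeing the data, 15 were shared. Covered length in NUP98-HOXA9 cells at equal list length was 43347 bp for menin-MLL targets and 22177 bp for stem and progenitor regulators. Of the 6 genes named per line as single-list genes, 2.5 kb windows left 0 in NUP98-HOXA9 and 3 in NUP98-HOXD13 cells, and the 5′ end alone left 0, 2 and 3. The cause of these shifts was not tested, apart from the shorter lists. Unknown read depth limits every comparison of list length and width.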
